A study of Mus musculus with 42 samples.

Results

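The sites described here are strong binding sites of 2 chimeric Hox proteins at which full-length HOXC13 had no called event. They were chosen by measured values: the HOXC10:C13.2 events on chromosomes 1 to 19 and X were ranked by their own ChIP read count, the top 10000 were kept, and a site was taken where the HOXC10:C13.1 list had an event within 100 bp and the HOXC13 list had none. The rule found 1474 sites among 86214 HOXC10:C13.2 events on these chromosomes. Of the other top events, 8425 had an event in both HOXC10:C13.1 and HOXC13 and are called HOXC13-shared sites, 90 had a HOXC13 event alone and 11 had neither. The sites without HOXC13 were thus 14.9% of the top sites of both chimeras, and 47.9% over all HOXC10:C13.2 events with a HOXC10:C13.1 event. These shares are set by the rule and nothing is read from them.

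Hox genes encode homeodomain transcription factors that give cells their identity along the body axis. The homeodomain touches short AT-rich DNA words, and the most posterior members, such as HOXC13, are known to take a TTTAC word beside the TTTAT word of the other posterior factors. HOXC10 acts at lumbar levels of the spinal cord and HOXC13 at the tail end. The chimeras join the N-terminal part of HOXC10 to the homeodomain and C-terminus of HOXC13, and HOXC10:C13.2 also takes a stretch before the homeodomain from HOXC13.

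Binding was measured by ChIP-seq in mouse embryonic stem cells that were differentiated as embryoid bodies (EBs) toward motor neurons. All 3 groups carried a doxycycline (Dox) inducible transgene in the Ainv15 line, received retinoic acid (RA) and the hedgehog agonist SAG from day 0 and Dox from day 2, and were collected at day 3 after 24 h of Dox. The lines were iFlag.Hoxc10:c13.2(402) and iFlag.Hoxc10:c13.1(401) for the chimeras, and for HOXC13 iFlag.Hoxc13 in its first library and iHoxc13.HA in its second, with 2 libraries in each group. HOXC13 was a human cDNA, and the tag was N-terminal for Flag and C-terminal for HA. The transgene was a single copy at the Hprt locus of the X chromosome. The chimera libraries and the first HOXC13 library used a Flag antibody and the second HOXC13 library an HA antibody.

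The chimera libraries held 27.4 to 32.9 M reads with 13.4 to 20.1% of reads assigned to events, and the HOXC13 libraries held 26.5 M and 31.0 M reads with 37.5 and 32.7%. HOXC13 was called in another run, against a control library of 20.6 M reads, while the chimeras shared one of 20.3 M reads. Each list pools its libraries, so no value below has an error between differentiations, and the 95% Wilson intervals cover sampling of sites and counting only. A protein effect and a difference of run, control library or antibody cannot be told apart in a list of missing events.

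Sequences of 6 sites are shown as examples of unmasked sequence that the chimeras occupied. They have the highest ChIP read counts among sites whose whole window of 101 bp was free of masked repeats and whose control reads did not exceed the median of 2.6. They stood at ranks 29 to 113 of the 1474 sites, since the stronger ones held masked bases in the window or had more control reads. The 101 bp around each event are given on the mm10 build with TTTAT and TTTAC on either strand in capitals.
chrX:5463232-5463332, + strand: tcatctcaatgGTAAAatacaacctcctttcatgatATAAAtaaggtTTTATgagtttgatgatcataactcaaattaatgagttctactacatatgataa
chr10:116489946-116490046, + strand: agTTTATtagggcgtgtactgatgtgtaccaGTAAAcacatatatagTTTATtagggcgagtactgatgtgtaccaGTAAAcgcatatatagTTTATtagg
chr16:47192085-47192185, + strand: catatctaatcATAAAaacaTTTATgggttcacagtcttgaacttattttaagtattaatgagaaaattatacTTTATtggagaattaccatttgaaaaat
chrX:117202547-117202647, + strand: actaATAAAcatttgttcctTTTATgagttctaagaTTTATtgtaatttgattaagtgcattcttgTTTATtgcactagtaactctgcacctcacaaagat
chr15:16467447-16467547, + strand: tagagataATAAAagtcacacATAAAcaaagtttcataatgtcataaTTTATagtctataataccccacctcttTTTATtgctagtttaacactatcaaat
chr8:102024266-102024366, + strand: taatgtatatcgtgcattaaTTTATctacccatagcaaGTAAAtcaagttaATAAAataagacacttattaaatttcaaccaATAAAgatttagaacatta
Every one of these windows held 2 to 4 copies of TTTAT, and TTTAC was found in 3 of the 6. Their GC content ran from 22.8 to 35.6%, and the longest stretch of A and T alone was 7 to 12 bases. The first lay on the X chromosome with 379.8 HOXC10:C13.2 reads, 266.6 HOXC10:C13.1 reads and 0.8 control reads, 5.98 kb from the start of Mycs and 11.9 kb from the nearest HOXC13 event. The window on chromosome 10, in an intron of Cnot2, a subunit of the CCR4-NOT complex that shortens mRNA tails, repeated a run of 22 bases at a spacing of 45 bases and had 368.9 reads against 0 in the control. The windows on chromosomes 15 and 8 were intergenic, with the starts of the cadherin genes Cdh9 at 261.3 kb and Cdh11 at 613.0 kb as their nearest. None of the 6 had an event of any other deposited list. For the windows on chromosomes 10 and 15 the nearest HOXC13 event lay 0.178 and 0.117 kb away.

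Read counts of the sites chosen by the rule are a description. The sites ran from 181.4 to 1176.8 HOXC10:C13.2 reads with a median of 215.2, and the HOXC13-shared sites from 181.4 to 3425.5 with a median of 264.6. The last top event and the first one below the limit both had 181.4 reads. The sites without HOXC13 therefore sat low in the ranking, with 5 among ranks 1 to 1000 and 279 among ranks 9001 to 10000. The chimeras kept nearly the same ratio to each other in both classes. The ratio of HOXC10:C13.1 to HOXC10:C13.2 reads had a median of 0.822 at these sites and 0.814 at HOXC13-shared sites. The HOXC10:C13.1 reads ran from 46.9 to 1153.4 with a median of 180.6, and 80.7% of the sites were also among the top 10000 of HOXC10:C13.1. In 98.3% the event stood at the same base in both chimera lists, which were called in one run with linked positions.

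Some of the sites were near misses and most were far from HOXC13. The nearest lay 101 bp from a HOXC13 event, the farthest HOXC13-shared site 100 bp, with 69 sites at 101 to 150 bp and 534 HOXC13-shared sites at 51 to 100 bp. A HOXC13 event lay within 101 to 250 bp of 124 sites, 8.41% (7.10 to 9.94), against 1.25% of fixed grid positions, taken every 100 kb, that had none within 100 bp. At longer distances the shares were closer to the grid. At 250 bp to 1 kb there were 6.31% of sites and 5.71% of grid positions, at 5 to 20 kb 37.0% and 38.7%. Over 100 kb there were fewer sites, 3.26% (2.46 to 4.29) against 5.64%, and the median distance was 9.12 kb for sites and 10.9 kb for the grid. HOXC13 events had at least 43.0 reads, with a median of 92.8 at HOXC13-shared sites and a 10th percentile of 52.1, so many shared sites were themselves close to the lowest count called. Whether HOXC13 reads under that level were present at the other sites was not tested, since the lists give no reads where no event was called.

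The 10 sites of highest count illustrate the range. The strongest, chr12:120028794, was intergenic, 82.2 kb from the start of Tmem196, with 1176.8 reads from HOXC10:C13.2, 1153.4 from HOXC10:C13.1 and 2.8 from the control. It lay in masked repeat sequence with a GC content of 50.5%, the highest of the 10, and had events of 2 other lists. The second, chr1:37107135, lay in an intron of Vwa3b with 804.0 reads and the most control reads of any site, 16.6. Masked repeats also held chr15:70329542 with 645.6 reads, chr2:100276438 with 555.5 and chr9:99950460 with 452.1, the last at 74.3 kb from Sox14, a SOX factor gene of interneurons. Both chr15:70329542 and chr2:100276438 stood over 1 Mb from any protein-coding start, at 1132.9 kb from Fam135b and 1299.7 kb from B230118H07Rik.

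The other strong sites included 3 near misses. A HOXC13 event was called 121 bp from chr6:75933745, which had 531.4 reads and lay 564.0 kb from Gm9008. Another stood 149 bp from chr5:146147782, a site of 443.0 reads with 0 in the control at 12.8 kb from Gm5565, and one more 117 bp from chr3:153310265, an intron site of St6galnac3 with 441.3 reads. At chr5:83872569, 489.5 kb from the start of Epha5, an ephrin receptor gene, 443.2 reads met events of 7 other lists, the most among the 10. The tenth, chr18:89417045, had 435.5 reads in an intron of Dok6, which encodes an adaptor of receptor tyrosine kinases.

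The 5 sites just inside the rank limit had 181.4 or 181.5 reads and 1.4 to 5.8 control reads, and 0 of the 5 had an event of another list. They were chr7:34776465 in an intron of Chst8, chr3:74534031 at 609.7 kb from Zbbx, chr4:72658563 at 194.1 kb from Aldoart1, chr12:111347729 in an intron of Cdc42bpb and chr16:46640176 at 141.7 kb from Nectin3. Of these, 3 lay in masked repeats.

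Events of the other lists of the series were seldom called at the sites without HOXC13. Each list comes from its own inducible lines, so a match does not show binding in the same cells. Treatments also differ. The day 4 lists, PBX among them, had Dox for longer than 24 h, and the unpatterned EBs for a shorter time. MEIS was measured in V5-tagged lines (iHoxc6.V5, iHoxc9.V5 and iHoxc10.V5) and PBX in Flag-tagged lines (iFlag.Hoxc9 and iFlag.Hoxc10). MEIS and PBX had a single library per line and were not measured in chimera or HOXC13 lines. HOXC10, HOXA9 and HOXD9 at day 3 joined lines with different tags. An event of at least 1 of the 18 other lists lay within 100 bp of 86 sites, 5.83% (4.75 to 7.15), against 32.7% (31.7 to 33.7) of HOXC13-shared sites and 2.34% of grid positions. The remaining 1388 sites, 94.2%, were found in no other list. When HOXC13-shared sites were weighted to the ChIP read counts of the sites without HOXC13, their share was 33.3%. Shares were lower at the sites without HOXC13 for 17 lists, and the last, PBX in iHoxc10 cells, had no event in either class.

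**Figure D1:**
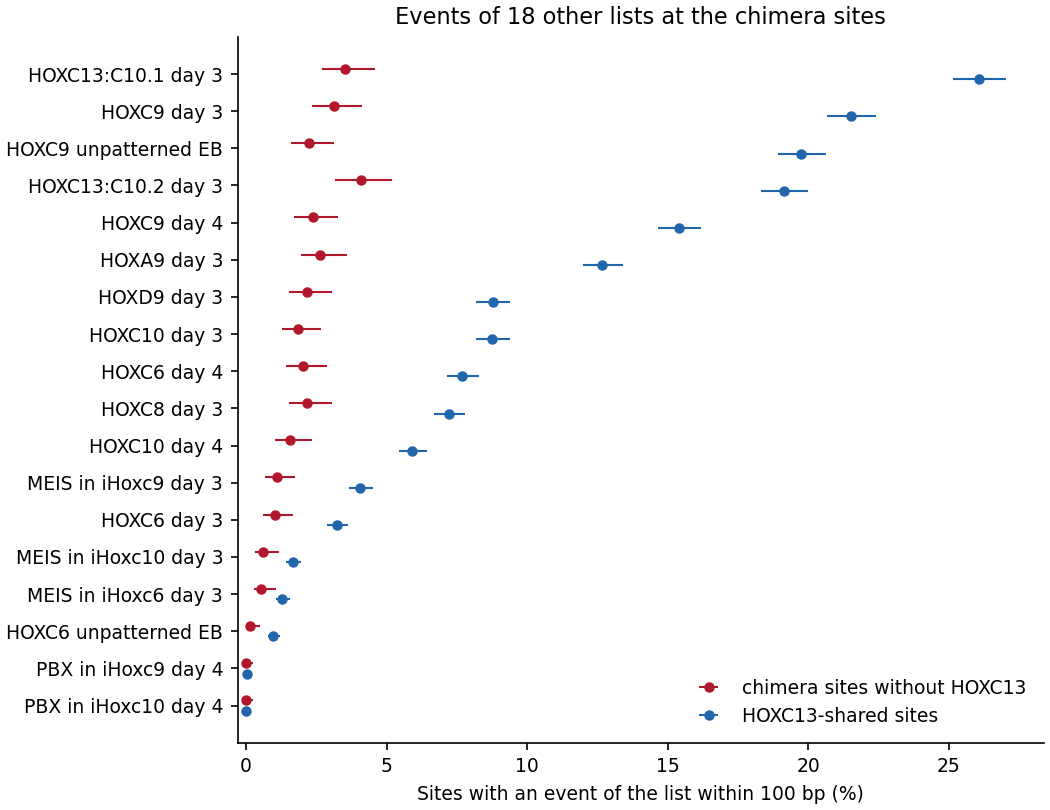
Share of sites (x axis, percent) with an event of each of 18 other lists (y axis) within 100 bp. Red points are the 1474 chimera sites without HOXC13, blue points the 8425 HOXC13-shared sites, and bars are 95% Wilson intervals over sites. Red points stay at or below 4.07% while blue points reach 26.1%.

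Events of the reverse chimeras, with the HOXC13 N-terminus and the HOXC10 homeodomain, were the most frequent of all lists and still rare. Shares were not adjusted for list length. HOXC13:C10.2 and HOXC13:C10.1 held 87224 and 99228 events, which lay at 0.681 and 0.743% of grid positions. HOXC10 and HOXC6 at day 3 held 26859 and 17898, at 0.219 and 0.137% of grid positions. HOXC13:C10.2 had an event at 60 sites, 4.07% (3.18 to 5.20), against 19.1% of HOXC13-shared sites, and HOXC13:C10.1 at 52 sites, 3.53% (2.70 to 4.60), against 26.1%. HOXC9, the thoracic factor, had an event at day 3 at 46 sites, 3.12% (2.35 to 4.14), against 21.5%. In EBs without patterning signals HOXC9 had an event at 33 sites, 2.24% (1.60 to 3.13), against 19.8%, the largest ratio of all lists at 8.83-fold. HOXC10, which gave the chimeras their N-terminal part, was found at 27 sites at day 3, 1.83% (1.26 to 2.65), against 8.76%.

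Events of central factors and cofactors were also less frequent than at HOXC13-shared sites. HOXC8 and HOXC6 had events at 32 and 15 sites at day 3, 2.17 and 1.02%, against 7.23 and 3.23% of HOXC13-shared sites. MEIS, the TALE homeodomain partner of Hox proteins, was called at 16 sites in iHoxc9 cells, 1.09% against 4.06%, and at 9 and 8 sites in the iHoxc10 and iHoxc6 lines. PBX, another TALE partner, was measured at day 4 only and had an event at 0 of 1474 sites in both lines. That allows a share of up to 0.260%, and in iHoxc9 cells PBX had 2 events at HOXC13-shared sites. The PBX lists held only 1164 and 848 events.

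Where another list had an event, several lists usually did. Of the 86 sites, 39 had events of 5 or more lists and 25 of a single list. These 86 sites differed in sequence from the 1388 others. Their median GC content was 32.2% (29.5 to 34.5) against 24.5% (24.5 to 25.0), TTTAT was in 84.9% against 97.4% of windows, and 22.1% (14.6 to 31.9) against 41.3% (38.7 to 43.9) lay in masked repeats. The site with most lists, chosen after its values were seen, was chr5:15993464 in Cacna2d1, a calcium channel subunit gene, with 219.4 reads and events of 16 lists.

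The sites without HOXC13 were also richer in A and T. In the 200 bp around the event the median GC content was 25.0% (24.5 to 25.5) at sites without HOXC13, 27.5% (27.0 to 27.5) at HOXC13-shared sites and 41.5% on the grid. The order held on all 20 chromosomes. It was local: in windows 5 kb to each side the medians were 38.5 and 39.0%. The central 50 bp bins reached a mean of 22.4% at sites without HOXC13 and 26.2% at HOXC13-shared sites, and at 1 kb the means were 38.2 and 38.8%. Weighting HOXC13-shared sites to the same ChIP read counts gave a mean of 29.0% against 25.3%, a wider gap than the 28.5% without weights.

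Most of this GC difference was absent among sites with no event of another list. Among sites found in none of the 18 other lists the median GC content was 24.5% (24.5 to 25.0) without HOXC13 and 25.0% (25.0 to 25.5) at the 5671 HOXC13-shared sites. In that comparison TTTAC was still in 35.8% (33.3 to 38.4) against 40.8% (39.5 to 42.1) of windows, and masked repeats held 41.3% (38.7 to 43.9) against 35.04% (33.8 to 36.3). The event lay outside genes at 70.5% (68.0 to 72.8) against 64.4% (63.1 to 65.6). The HOXC13-shared sites with an event of another list had a median GC content of 33.0%, close to the 32.2% of the 86 sites.

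**Figure D2:**
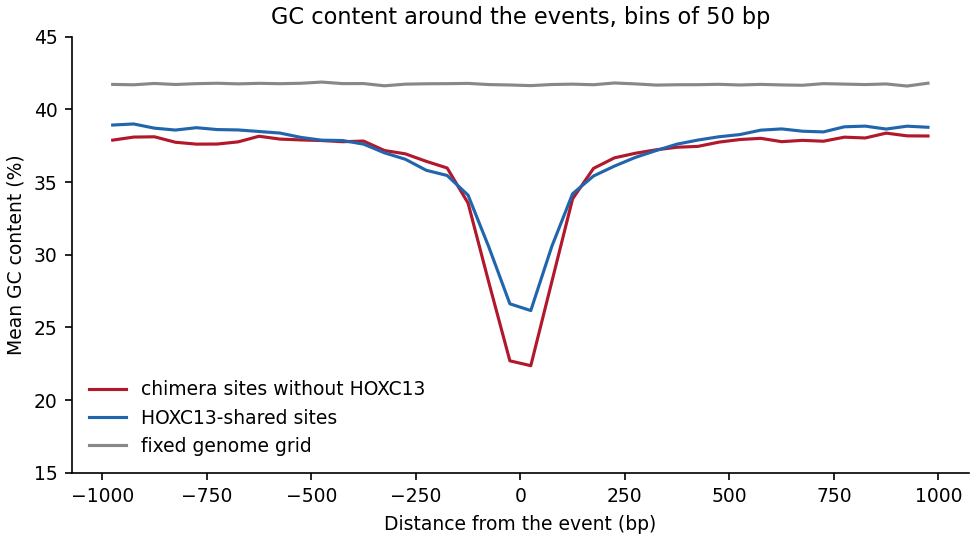
Mean GC content (y axis, percent) in bins of 50 bp by distance from the event (x axis, bp). The red line (1474 sites without HOXC13) dips to 22.4% at the centre, the blue line (8425 HOXC13-shared sites) to 26.2%, and the grey grid stays near 41.6%.

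The share of sites without HOXC13 changed stepwise with GC content. Below 20% GC it was 27.8% (24.4 to 31.4) of the sites of both chimeras, from 20 to 25% it was 18.8% (17.4 to 20.3), from 25 to 30% 16.9% (15.6 to 18.2), from 30 to 35% 9.11% (7.87 to 10.5), and at 35% or more 4.89% (3.90 to 6.10). The chimera lists as a whole were AT-rich: the top 10000 events had a median GC content of 27.0% for both, against 39.5% for HOXC13, 43.5% for HOXC10 and 41.0 and 43.0% for the reverse chimeras. The classes overlapped widely, and below 20% GC 463 of the top sites were HOXC13-shared beside 178 without HOXC13. Reads from AT-rich DNA also depend on how a library was amplified, and its part in the missing HOXC13 events was not tested.

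Windows with long runs of A and T were more frequent. The longest run of A or T in the 101 bp window had a median of 13 bases at sites without HOXC13 and 12 at HOXC13-shared sites, and runs of 20 bases or more were found at 193 sites, 13.09% (11.5 to 14.9), against 5.84% (5.36 to 6.36). A CG dinucleotide was present in 20.5% (18.5 to 22.6) of windows against 32.1% (31.1 to 33.1) and 48.1% on the grid.

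The Hox words themselves were common in both classes. Words were searched on both strands in 101 bp windows, TTTAT being part of TGATTTAT and able to overlap TAAT. The posterior word TTTAT was found at 1425 of the 1474 sites, 96.7% (95.6 to 97.5), against 95.8% (95.4 to 96.2) of HOXC13-shared sites, 34.1% of the grid and 43.1% of windows 1 kb away. The intervals overlap in these windows, where nearly all sites held the word. In 25 bp to each side TTTAT was found at 84.8% (82.9 to 86.5) against 81.8% of HOXC13-shared sites. TAAT, the word of central Hox factors, was in 95.1% (93.9 to 96.1) against 92.7% (92.1 to 93.2), and in 53.1% of the grid. The PBX-Hox word TGATTTAT was rare, at 3.05% (2.29 to 4.06) against 3.49% (3.12 to 3.90), with 0.556% on the grid.

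TTTAC, the HOXC13 word, was less frequent at the sites without HOXC13. It was found in 526 windows, 35.7% (33.3 to 38.2), against 41.5% (40.5 to 42.6) at HOXC13-shared sites, 19.2% on the grid and 22.1% at 1 kb from the sites. The share was lower on 18 of 20 chromosomes. Weighting HOXC13-shared sites to the GC content of the sites without HOXC13 left 40.8%. Within GC classes the gap widened with GC content. Under 20% GC the shares were 37.1% (30.3 to 44.4) and 37.4% (33.1 to 41.9), and at 35% GC or more 28.8% (19.7 to 40.01) and 44.6% (42.0 to 47.2). Among the top 10000 events of HOXC13 itself 49.7% of windows held TTTAC, and of HOXC10:C13.2 40.6%.

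**Figure D3:**
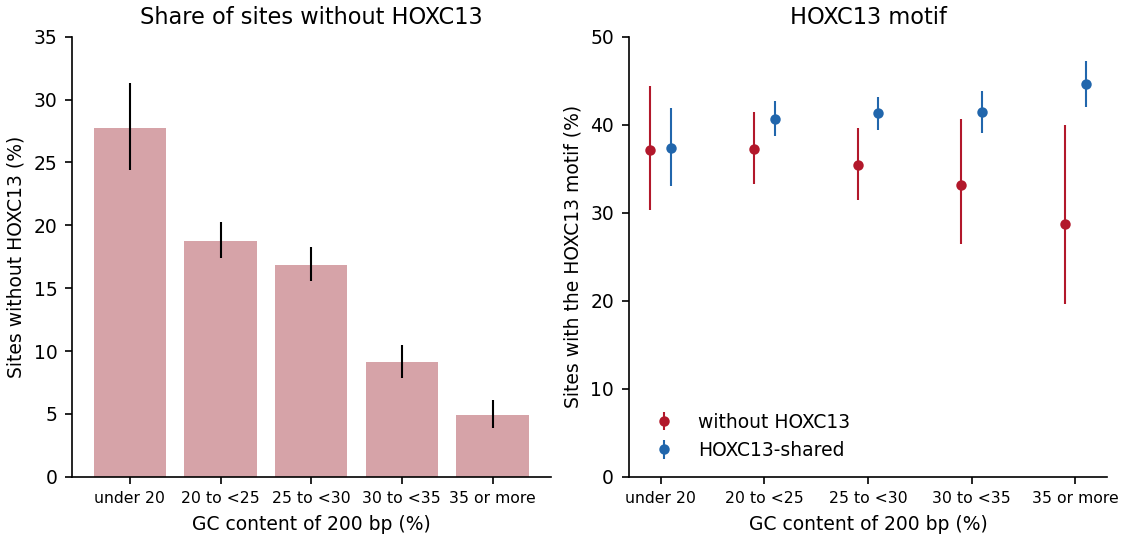
Left, share of top sites of both chimeras without a HOXC13 event (y axis, percent) by GC content of 200 bp (x axis, percent). Right, share of windows with the HOXC13 word (y axis, percent) in the same classes for sites without HOXC13 (red) and HOXC13-shared sites (blue), bars being 95% Wilson intervals over sites. The left bars step down from 27.8 to 4.89%, and on the right the intervals are apart only at 35% GC or more.

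The words were also counted by position. In the 10 bp bin just before the event TTTAT was found at 39.2% of sites without HOXC13 and 34.2% of HOXC13-shared sites, with 6.85 and 8.23% at one edge of the region and 8.28 and 7.91% at the other. TTTAC reached 4.41 and 6.05% in that bin, with 2.78 and 2.92% at one edge and 3.80 and 3.73% at the other. At the sites without HOXC13 this was not the highest bin: TTTAC was at 5.50% at 60 to 70 bp before the event, against 4.80% at HOXC13-shared sites, and at 5.43% against 5.58% at 40 to 50 bp after it.

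**Figure D4:**
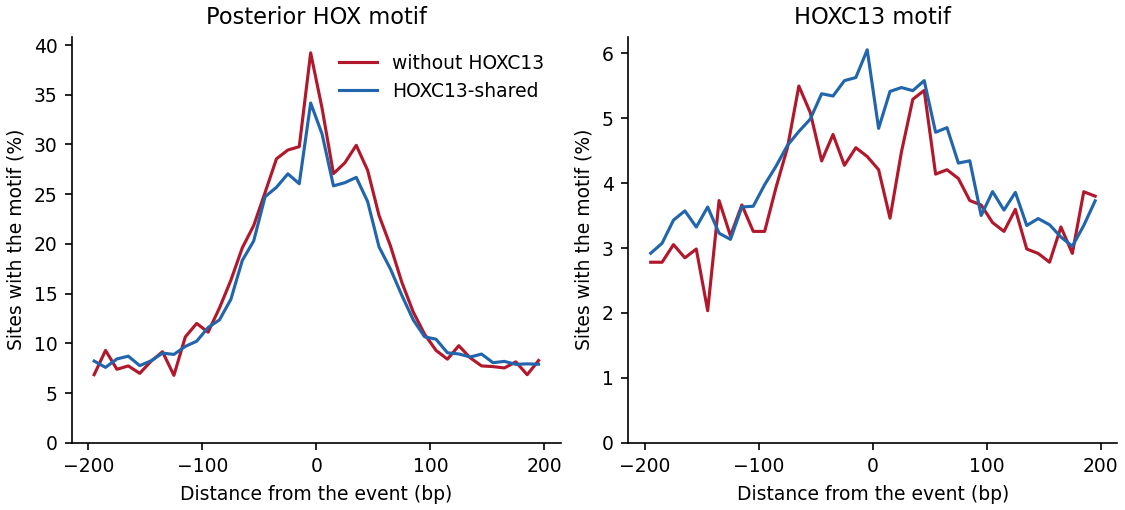
Share of sites (y axis, percent) with the posterior Hox word (left) and the HOXC13 word (right) on either strand in bins of 10 bp by distance from the event (x axis, bp). The red line is the sites without HOXC13 and the blue line the HOXC13-shared sites, which peak at 39.2 and 34.2% on the left and have 4.41 and 6.05% just before the event on the right.

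All pentamers were counted to see which words set the classes apart, with 1 percentage point added to each share before the ratio was taken. The 5 most over-represented at the sites without HOXC13 were ATATC (31.5% against 23.0%), ATATG (46.9% against 36.0%), AATAT (69.7% against 53.8%), ATATA (57.3% against 46.8%) and GAAAA (39.7% against 33.4%), each on either strand. The first 4 all hold ATAT. At the other end, picked after the values were seen, stood CATCG (0.339% against 2.22%), GCAGC (1.70% against 5.33%) and ACGAG (1.63% against 5.00%). ACGAG on the other strand is CTCGT, part of the longer HOX13 word CTCGTAAA. That word, added after the data were seen, was found at 7 sites, 0.475% (0.230 to 0.977), against 178 HOXC13-shared sites, 2.11% (1.83 to 2.44). Its relative CTCATAAA was at 8.62% (7.29 to 10.16) against 12.7% (12.0 to 13.5), while CCAATAAA, also known from HOX13 factors, was at 14.3% (12.6 to 16.2) against 15.1% (14.3 to 15.8). Unlike TTTAC, none of these pentamers and longer words was weighted to GC content, which was lower at the sites without HOXC13. The part of GC content in these shares was not tested.

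Repeat sequence was more common. The event base lay in sequence masked as repeat in the reference at 592 sites, 40.2% (37.7 to 42.7), against 29.1% (28.1 to 30.0) of HOXC13-shared sites and 34.4% of the grid. The share was higher on 20 of 20 chromosomes. It was 28.4% when HOXC13-shared sites were weighted to the same ChIP read counts and 33.5% when weighted to the same GC content. The top events of the full-length day 3 factors lay in masked sequence at 6.14% for HOXC6 to 9.65% for HOXC13, and those of the chimeras at 30.6 and 31.6%. Exact tandem repeats of units up to 6 bases over 20 bases or more were rare, at 11 sites, 0.746% (0.417 to 1.33), against 8 HOXC13-shared sites, 0.0950% (0.0481 to 0.187), and 3.18% on the grid. Reads were kept only with a single best hit, and how that acted on repeats was not tested.

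Masked and unmasked sites differed little in reads and more in A and T runs. Median ChIP reads were 212.0 at the 592 masked and 217.3 at the 882 unmasked sites, control reads had a median of 2.60 in both, and TTTAC was found at 36.0 and 35.5%. The difference in GC content from HOXC13-shared sites was present in both, at 24.5% against 25.5% in masked and 25.5% against 28.5% in unmasked sequence. Runs of A or T of 20 bases or more were found at 22.3% (19.1 to 25.8) of masked and 6.92% (5.42 to 8.78) of unmasked sites.

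Control reads were few at the sites. They ran from 0 to 16.6 with a median of 2.60 (2.50 to 2.70), against a median of 2.90 (2.90 to 3.00) and a range of 0 to 14.8 at HOXC13-shared sites. No control read was assigned to 95 sites, 6.45%, and to 3.44% of HOXC13-shared sites, and 13 sites had 10 reads or more. At matched GC content the mean of HOXC13-shared sites was 2.99 reads, against 2.99 at the sites without HOXC13. The log2 fold over control ran from 2.65 to 8.12 with a median of 5.06, and the median at HOXC13-shared sites was 5.24.

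The X chromosome stood apart. Of 157 top sites of both chimeras on the X, 65 had no HOXC13 event, 41.4% (34.0 to 49.2), against 1409 of 9742 on the autosomes, 14.5% (13.8 to 15.2). Over the 19 autosomes the share ran from 10.3% on chromosome 11 to 19.5% on chromosome 9, all below the lower bound on the X. The difference held at matched ChIP reads: between 192.4 and 206.7 reads it was 64.3% (45.8 to 79.3) on the X and 24.0% (21.6 to 26.5) on the autosomes, and above 260.9 reads 16.1% (8.69 to 27.8) and 6.27% (5.60 to 7.01). It also held over the whole list, where a HOXC13 event lay near 22.3% of HOXC10:C13.2 events on the X and 47.7% on the autosomes. For HOXC9 these shares were 27.3 and 34.9%, and for HOXC13:C10.2 22.8 and 28.5%.

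**Figure D5:**
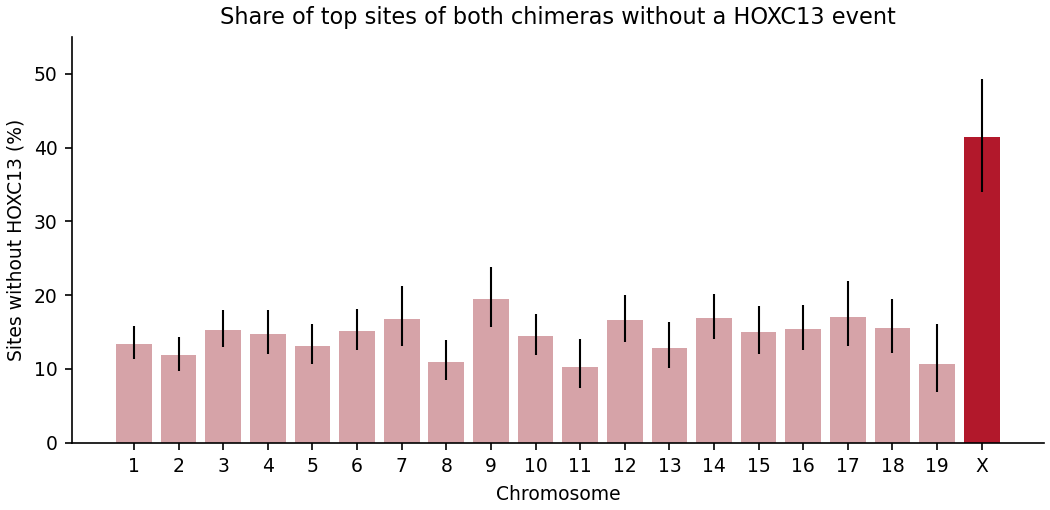
Share of top sites of both chimeras without a HOXC13 event (y axis, percent) on each chromosome (x axis), bars being 95% Wilson intervals over sites. The X, in dark red, stands at 41.4%, and the 19 autosomes lie between 10.3 and 19.5%.

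The X sites were close to the others in GC content, TTTAT and masked repeats. Their median GC content was 24.5% (23.0 to 26.0), TTTAT was in 65 of 65 windows and 36.9% lay in masked repeats. TTTAC was in 30.8% of these 65 windows, against 35.9% (33.4 to 38.5) of those on the autosomes, a difference that was not tested. Control reads were lower, with a median of 1.00 on the X and 2.70 on the autosomes, as they were over the whole lists, with means of 1.22 on the X and 2.69 on autosomes for HOXC10:C13.2 and 2.04 and 3.84 for HOXC13. Events on the X made up 2.80% of the HOXC10:C13.2 list and 1.959% of the HOXC13 list. The 2 lists used different lines and control libraries, and the part of either was not tested.

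Most sites lay outside genes. In 70.1% (67.7 to 72.4) the event was outside any protein-coding gene, against 61.2% (60.1 to 62.2) of HOXC13-shared sites and 59.6% of the grid, and the share was higher on 20 of 20 chromosomes. Introns held 28.1% (25.9 to 30.4) against 36.4%, and exons 27 sites, 1.83%, against 2.48%. The nearest protein-coding start was at a median of 156.2 kb, against 104.9 kb for HOXC13-shared sites and 46.5 kb for the grid, and over 500 kb away for 24.6% (22.5 to 26.9) against 19.6% (18.8 to 20.5). An annotated start of any transcript lay within 1 kb of 47 sites, 3.19% (2.41 to 4.21), against 3.70% (3.32 to 4.13) and 6.10% of the grid, a difference between the classes within the intervals. The sites were scattered, with 37 having another within 10 kb and a median of 362.1 kb between neighbours.

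Few genes had such a site nearby. Of 21755 protein-coding genes, 981 (4.51%) had one in the gene or within 50 kb and 395 (1.82%) in the gene body, while 4461 (20.5%) had a HOXC13-shared site in or within 50 kb. Long genes had most. Of genes of 500 kb or more 38.7% had a site in or within 50 kb, and of genes under 10 kb 3.82%. The gene with most sites in its body was Csmd3, and 9 of the 10 genes with most were over 500 kb long. Csmd3 had 8 sites over 1211.4 kb, beside 14 HOXC13-shared sites, and Lrp1b, a lipoprotein receptor gene, had 7 over 2058.4 kb, beside 18. Cntnap2, a neurexin relative of axons, and Lsamp, an adhesion protein gene of neurons, had 4 each, beside 14 each. Ccser1, Fstl5, Immp2l, Lingo2 and Lrrtm4, the last a synaptic adhesion gene, had 3 each, and so had Topaz1, a germ cell gene of only 54.8 kb.

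The Hox genes had none. Among 39 Hox genes 0 had a site in the gene or within 50 kb, and 38 had a HOXC13-shared site there. These genes lie in 4 clusters, so neighbouring genes share sites and are not separate counts. Within the spans of the 4 clusters there were 0 sites without HOXC13 and 6, 4, 6 and 2 HOXC13-shared sites in HoxA, HoxB, HoxC and HoxD. The same held for the 9 Hox cofactor genes (Meis, Pbx and Pknox), where 5 had a HOXC13-shared site, for the 16 caudal axis genes such as Cdx2 and Wnt3a, where 3 had one, for the 18 motor neuron genes such as Isl1 and Mnx1, where 5 had one, and for the 114 keratin and hair follicle genes, a group tied to HOXC13 in skin, where 19 had one. Over all genes 4.51% had a site and 20.5% a HOXC13-shared site, and over genes under 10 kb 3.82 and 13.8%. For HOXC13-shared sites the caudal axis genes were at 18.8% and the keratin and hair follicle genes at 16.7%, not above the share of all genes. At such shares short lists can hold no site, so nothing is read from the zeros. The median gene length was 3.49 kb for Hox, 3.73 kb for keratin and hair follicle and 139.2 kb for cofactor genes.

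In the other lists a few genes had one. Of 16 limb and genital targets of HOX13 factors, Enpp2, the gene of the enzyme autotaxin, had a site of 234.3 reads at 23.8 kb. Of 17 pluripotency genes, Zfp42 had one of 229.7 reads at 10.8 kb. Of 70 axon guidance genes 7 did, 10.0% at a median length of 51.5 kb, against 4.51% of all genes at a median of 17.4 kb. They included Sema3e, a repellent ligand, with a site of 287.1 reads at 15.4 kb, the receptor gene Robo2 with one of 280.3 reads in the gene, its ligand gene Slit2 with one of 255.2, and Sema6d with 2 sites, the stronger of 209.3 reads. Of 128 adhesion genes 27 did, 21.1% at a median length of 113.5 kb. Of these, 14 were protocadherin alpha genes, which overlap and shared 2 sites, and 13 of the 114 others, 11.4%, had one. The strongest were in Cntn5 (368.0 reads), Cntnap2 (326.8), Cntn4 (293.2) and Lrrtm4 (291.3), all genes of neuronal adhesion, 791.3 to 2244.9 kb long. HOXC13-shared sites lay in or within 50 kb of 60.2% of adhesion and 32.9% of axon guidance genes, against 20.5% of all genes. Of genes of 50 to under 200 kb, 5.85% had a site without HOXC13 and 32.7% a HOXC13-shared site. Higher shares in these 2 lists were thus not particular to the sites without HOXC13.

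By distance to HOXC13 the sites differed in some measures and not in others. An event of another list lay at 32 of the 217 sites within 1 kb of a HOXC13 event, 14.7% (10.6 to 20.1), at 41 of the 845 at 1 to 20 kb, 4.85% (3.597 to 6.52), and at 13 of the 412 beyond 20 kb, 3.16% (1.85 to 5.32). Control reads had medians of 1.90 (1.80 to 2.50), 2.80 (2.60 to 3.00) and 2.40 (2.10 to 2.70), and CCAATAAA was found at 9.68% (6.42 to 14.3), 13.6% (11.5 to 16.1) and 18.2% (14.8 to 22.2). Median GC content was 24.5, 25.0 and 25.0% in the same order, and TTTAC was found at 36.9, 35.3 and 35.9%. Masked repeats held 37.8% (31.6 to 44.4), 38.6% (35.4 to 41.9) and 44.7% (39.9 to 49.5). Sites beyond 20 kb lay outside genes in 75.5% (71.1 to 79.4), against 67.7% (64.5 to 70.8) at 1 to 20 kb. Between sites above and below the median ChIP read count, with medians of 250.6 and 195.8, GC content was 25.0% in both and TTTAC was in 36.8% (33.4 to 40.3) and 34.6% (31.2 to 38.1), with overlapping intervals.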

How the data were processed

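The authors aligned ChIP-seq reads to mm10 with Bowtie 1.0.1, kept single best hits and called events with MultiGPS over both libraries of a condition at a q-value under 0.001. The deposited event lists give for each event estimated counts of reads in the ChIP and control libraries, a log2 fold between them, and a log2 q-value, a score of the authors' caller used here for an alternative ranking. The authors' columns of comparisons between conditions were not used, nor the deposited position tracks, which repeat the events. Per the labels the submitters' processing notes also name Picard 2.8.2 and edgeR 3.22.5.

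From these lists, events were ranked, matched within 100 bp and described with Python 3.11.15. Sequence, repeat masking and coordinates come from GRCm38, the assembly of mm10, and genes from GENCODE M21. GC content was taken over 200 bp and words over 50 bp to each side, beside 25558 grid positions. No test was run, because the lists pool their libraries. Shares carry Wilson intervals and medians order-statistic intervals, both at 95%. Sites named are the 10 of highest count, the 5 nearest the rank limit, the 10 genes holding most sites, and up to 4 per gene list by count. The sites, gene lists and measures were chosen with earlier results of these data known. Sequences on chromosome 18 were not shown. The scripts were tested on simulated data. Alternatives changed the ranking, the list length, the matching distance, the length of the HOXC13 list, the windows and the control reads allowed.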

Additional observations from a re-analysis of the deposited data

How the results depend on the processing

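The number of sites depended on the limits: the top 5000 gave 351, the top 20000 gave 5207, and cutting the HOXC13 list to the length of the HOXC10:C13.2 list gave 3017. The share with an event of another list was 7.64% for the top 20000, 8.26% at a matching distance of 50 bp and 4.30% for sites over 1 kb from HOXC13. Median control reads were 1.70 when ranked by q-value, 2.90 for the top 5000 and 2.40 for the top 20000. The share near a start site was 4.27% for the top 5000, where its difference from HOXC13-shared sites reversed to 0.355 points, and 6.78% within 2 kb. TAAT also reversed for the top 5000, to a difference of -0.649 points. GC content was 22.0% over 100 bp, TTTAC was at 18.3% in 25 bp and 58.0% in 100 bp to each side, and 395 genes had a site in the gene body alone. Over 9 alternatives for the choice of sites, the differences from HOXC13-shared sites kept their direction for GC content (-3.50 to -1.50 points), TTTAC (-7.31 to -4.64), masked repeats (9.33 to 14.1) and events of other lists (-32.0 to -23.1). Limiting both classes to sites with no event of another list was not among these 9, and it left a smaller GC difference. Keeping only autosomal sites or those over 1 kb from HOXC13 was added after the data were seen, as were the weightings. No paired analysis was possible because every list pools its libraries, and for the same reason no replicate could be left out. A site without a HOXC13 event may hold HOXC13 reads below the lowest count called.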

Other observations

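A few of the chimera sites without HOXC13 shared sequence. Windows of 200 bp were called related where they had 30 or more 16-base words in common, a measure added after the data were seen, and 29 of 1474 sites (1.97%) had a related one, against 3.28% of HOXC13-shared sites. The largest group held 10 sites on 6 chromosomes with 181.8 to 312.5 HOXC10:C13.2 reads, 6 of them at a masked base. The next held 3 sites within 599 bp of chromosome 9, with Topaz1 as their nearest gene, the gene with 3 sites in its body.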
